A study of Mus musculus with 4 samples.

Results

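Sham microglia sampled 1 week after the start of the experiment were compared with sham microglia sampled at 6 h, with no irradiation in either group. Microglia are the resident macrophages of the brain. The comparison took all barcodes of those 2 libraries that had at least 1000 UMIs, at least 500 detected genes and at most 10% of UMIs from mitochondrially encoded genes. A UMI marks a single captured RNA molecule, so that copies made by amplification are not counted again. The rule left 2652 cells of 2670 barcodes at 6 h and 1582 cells of 1623 barcodes at 1 week, which together are 4234 of the 8369 cells that the same rule leaves in all 4 libraries of the study.

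The study profiled microglia of C57BL/6 mice on the 10x Genomics Chromium platform, which tags the RNA of single cells in droplets. Irradiated mice received 8 Gy to the whole brain at postnatal day 21, in 1 exposure, and sham controls received no dose. It asked whether responding genes are active together in the same microglia or in different ones. A group is a pool of 4 mice made into 1 library, so the sham pair has no replicate check and no test was possible. Differences of 1 week of juvenile age, library, handling and day of preparation cannot be told apart here. The age label is postnatal day 21 for all 4 libraries, and the 1-week libraries are set apart by their time label. The tissue is named brain in the sample labels and hippocampus in the description of the study.

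Around weaning age in a mouse, microglia have passed the early proliferative and amoeboid phase and express the genes of the mature surveying cell, such as those for the purinergic receptor P2ry12 and the membrane protein Tmem119. Early postnatal microglia are known for genes that recur in disease, such as Apoe, Spp1 and Igf1. Small numbers of microglia in the normal brain carry interferon-induced transcripts, and some divide. Immediate early genes, the first genes transcribed after a stimulus, are also known to be induced in microglia while tissue is dissociated.

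The libraries were alike in depth per cell, with a median of 3532.5 UMIs at 6 h and 3594 at 1 week, while the total was 9736149 and 5675117 UMIs. Mitochondrially encoded genes took 1.19% and 1.41% of UMIs. Of the 9 microglia markers at least 7 were detected in 99.4% of cells at 6 h and in 99.9% at 1 week. Markers of other cell types that were carried by at most 5% of sham cells were summed by class, and 29 cells at 6 h (1.09%, 95% interval 0.734 to 1.57%) and 4 cells at 1 week (0.253%, 0.0689 to 0.646%) held at least 3 UMIs of another class or fewer than 3 microglia markers. The summed level of those markers was 26.0 CPM (UMIs scaled to the same total in every library) against 8.28 CPM for border macrophages and 15.5 against 9.52 CPM for monocytes. The limit of 5% left out the monocyte marker Plac8, carried by 5.13% of cells at 6 h and 1.39% at 1 week, and with it the monocyte sum was 44.1 against 15.5 CPM. For mural cells and fibroblasts it was 16.9 CPM against 0 UMIs, for oligodendrocytes 16.9 against 10.7 CPM, for astrocytes 7.09 against 3.88 CPM and for endothelial cells 6.57 against 9.16 CPM. The border macrophage genes Cd163, Lyve1 and Clec4n had 5, 8 and 9 UMIs at 6 h and 0 at 1 week. Mrc1 (20.5 and 12.5 CPM), Pf4 (13.4 and 1.23 CPM) and Cbr2 (3.29 and 0.529 CPM) were lower at 1 week too. Ms4a7 (6.27 and 5.64 CPM), Folr2 (0.822 and 0.881 CPM) and Stab1 (176 and 156 CPM) differed little. The defining genes Ly6c2 of monocytes and S100a8 of neutrophils had 0 UMIs in both, which allows up to 3 UMIs, or 0.308 CPM at 6 h and 0.529 CPM at 1 week. The X-inactivation transcript Xist was present in 96.5% and 96.3% of cells and the Y-linked genes Ddx3y, Eif2s3y and Kdm5d had 0 UMIs in both. The sham libraries shared 5 barcodes, of which 4 were kept.

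Most genes differed little between the sham libraries. Of 8544 genes with at least 100 UMIs over both, 169 were at least 1.5-fold higher at 1 week (1.98%) and 310 were at least 1.5-fold lower (3.63%), so that 5.61% passed in either direction. The median log2 fold over all these genes was -0.05, and 90% of them lay between -0.51 and 0.41. A log2 fold here is the level at 1 week over the level at 6 h, both in CPM summed over the cells of a library, and its 95% interval covers counting error only. With DESeq2 size factors the split was 214 higher and 249 lower, and with TMM factors 214 higher and 251 lower. Without the cells of other types 168 genes were higher and 302 lower. In the plot of level against fold, genes for mature microglial functions lie near 0 at high level, interferon-induced genes lie below and immediate early genes above.

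**Figure D1:**
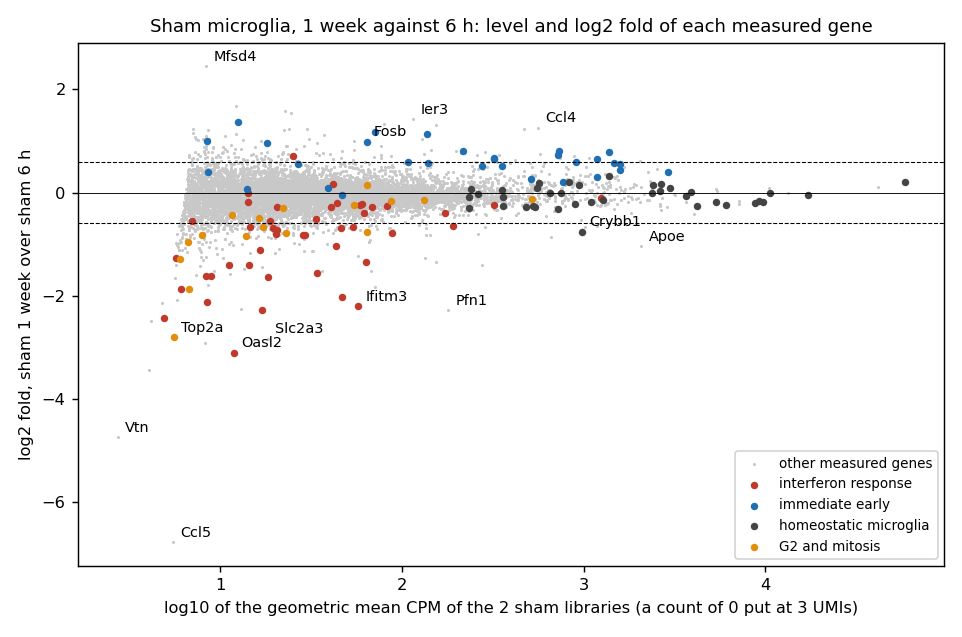
Each point is a gene with at least 100 UMIs over both sham libraries, with its log2 fold (1 week over 6 h) against the log10 of its geometric mean CPM, and 4 gene lists are coloured. The dashed lines mark 1.5-fold; Ccl5 at -6.78 is the lowest gene and Mfsd4 at 2.44 the highest.

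Interferon-induced genes formed the group with the most members lower at 1 week. Of 45 measured members 27 were at least 1.5-fold lower, against 3.63% of all genes, and 1 was higher. The median log2 fold was -0.70, against -0.05 for all genes, and 43 of 45 were below 0. A further 10 members had fewer than 100 UMIs, and over all 55 members with at least 1 UMI the median was -0.78. The genes encode antiviral effectors that restrict entry, replication or translation of viruses, sensors of viral RNA and the factors that relay the interferon signal.

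Many promoters of this group hold the letters GAAANNGAAA or their reverse complement TTTCNNTTTC, the core of the interferon-stimulated response element (ISRE) that interferon regulatory factors recognise. The letters were found in 13 of the 20 lower interferon genes with a promoter in the RefSeq table (65.0%), in 23 of 35 measured interferon genes with one (65.7%) and in 3.83% of the 6625 measured genes with one. The search used both strands and the window from 250 bases before to 50 bases after the annotated start, and overlapping matches were each counted. A match describes letters and is not a measured binding site. The promoters of Ifitm3, Slfn5, Oas1a and Ifit3 are shown as examples from 4 effector families of the list, each with the letters, which are in capitals. Rsad2, Ifit3b, Ifit1 and Isg15 hold them too. They are 5′ to 3′ on the strand of the gene, from RefSeq on GRCm38.p6, and lie at chr7:141010695-141010994 (minus strand), chr11:82951852-82952151 (plus strand), chr5:120907476-120907775 (minus strand) and chr19:34583279-34583578 (plus strand).
Ifitm3: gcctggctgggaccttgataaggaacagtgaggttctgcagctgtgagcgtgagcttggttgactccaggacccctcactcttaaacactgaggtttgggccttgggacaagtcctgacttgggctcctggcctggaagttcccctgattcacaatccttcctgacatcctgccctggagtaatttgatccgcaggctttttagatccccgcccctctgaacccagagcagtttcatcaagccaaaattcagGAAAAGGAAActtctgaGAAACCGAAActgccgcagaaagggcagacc
Slfn5: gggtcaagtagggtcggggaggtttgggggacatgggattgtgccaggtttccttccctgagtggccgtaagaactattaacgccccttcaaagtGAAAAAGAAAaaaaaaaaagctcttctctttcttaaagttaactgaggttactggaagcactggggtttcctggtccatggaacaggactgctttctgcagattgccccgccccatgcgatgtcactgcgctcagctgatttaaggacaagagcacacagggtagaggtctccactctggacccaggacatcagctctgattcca
Oas1a: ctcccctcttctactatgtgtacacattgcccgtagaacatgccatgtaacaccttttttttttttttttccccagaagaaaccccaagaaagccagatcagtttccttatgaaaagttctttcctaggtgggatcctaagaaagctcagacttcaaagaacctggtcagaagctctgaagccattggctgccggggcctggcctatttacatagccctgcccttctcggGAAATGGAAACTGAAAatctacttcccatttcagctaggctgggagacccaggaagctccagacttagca
Ifit3: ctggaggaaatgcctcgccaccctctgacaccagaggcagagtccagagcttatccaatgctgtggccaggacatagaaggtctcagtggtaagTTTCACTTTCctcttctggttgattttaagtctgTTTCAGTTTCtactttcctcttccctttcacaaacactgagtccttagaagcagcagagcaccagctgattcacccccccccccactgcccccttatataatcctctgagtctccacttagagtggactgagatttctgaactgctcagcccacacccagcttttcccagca
The matches differ in place and orientation. In Ifitm3 they begin 3 and 20 bases after the start, in Slfn5 155 bases before it, and in Oas1a 20 and 14 bases before it, where the matches overlap. In Ifit3 both lie on the reverse strand, 156 and 122 bases before the start. Oasl2 and Irf7 do not hold the letters in this window.

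Among the effectors, Ifitm3 (chromosome 7, 141009586 to 141010770, mm10), which blocks the fusion of viruses with endosomal membranes, stood at 124 CPM at 6 h and 26.8 CPM at 1 week, a log2 fold of -2.21 (95% interval -2.46 to -1.96). Its promoter is the first of those printed above. The 2′-5′ oligoadenylate synthetase-like gene Oasl2 (chromosome 5, 114896936 to 114912234) went from 339 UMIs to 23, at -3.10 (95% interval -3.78 to -2.49). Oas1a, whose product makes the oligoadenylates that activate RNase L, stood at 17.8 and 4.05 CPM. Ifit3, of the family that binds foreign RNA, stood at 58.9 and 20.1 CPM, a log2 fold of -1.55, and its relatives Ifit1, Ifit2 and Ifit3b lay between -1.63 and -1.40. Rsad2 (viperin) was at -1.87 and Isg15, a ubiquitin-like modifier, at -1.04, while its protease Usp18 was at -1.41. The effectors named here were all lower, and the size ranged widely. Bst2 (tetherin), which holds budding virus at the membrane, had 2347 and 872 UMIs and a smaller difference of -0.65 (95% interval -0.76 to -0.54).

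Of the genes that sense RNA or relay the signal, Irf7, the regulator that amplifies type I interferon production, was the lowest, at 37.6 CPM at 6 h and 7.75 CPM at 1 week (-2.28, 95% interval -2.76 to -1.82). The RNA sensors Ddx58 (RIG-I), Ifih1 (MDA5) and Dhx58 (LGP2) lay close together at -0.70, -0.66 and -0.74. Irf9, a subunit of the factor that interferon activates, did not reach 1.5-fold, at -0.39. Some members differed little: the surface protein gene Ly6e had 1288 and 1199 CPM (-0.10) and the monocyte chemokine gene Ccl12 349 and 297 CPM (-0.23). Cxcl10, a chemokine gene for T cells, was the 1 member that was higher, at 19.7 and 32.1 CPM (0.70, 95% interval 0.40 to 1.00), with 33 and 22 cells carrying it. In each library 10 cells held most of these UMIs, 167 of 192 at 6 h and 168 of 182 at 1 week.

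Most cells held a few UMIs of the interferon list and a minority held many. With each cell thinned to 2000 UMIs, which left 2559 cells at 6 h and 1393 at 1 week and set aside 93 and 189 shallower ones, the median cell had 5 UMIs of the list at 6 h and 4 at 1 week. The upper tail differed more. The 99th percentile was 57 UMIs at 6 h and 23.1 at 1 week. The share of cells above 23 UMIs, the 95th percentile at 6 h, was 1.01% (95% interval 0.551 to 1.68%) at 1 week. At 6 h that share was 4.73%, which the choice of the cut sets. Without the 5% of cells richest in the list in each library the list median was -0.51. Ifitm3 was carried by 9.34% (95% interval 8.24 to 10.5%) of thinned cells at 6 h and 3.02% (95% interval 2.18 to 4.05%) at 1 week, and by 13.3% and 4.17% of cells at full depth. Irf7 was carried by 4.73% and 1.15% of thinned cells (7.65% and 2.15% at full depth). The cells that could gauge free RNA were the 11 of all 4 libraries with fewer than 3 microglia markers, of which 10 came from the irradiated 6 h library, with a median of 1284 UMIs against 3519 in the other cells. Ifitm3 had a UMI in 6 of these 11 cells, so a background level could not be set for interferon genes.

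**Figure D2:**
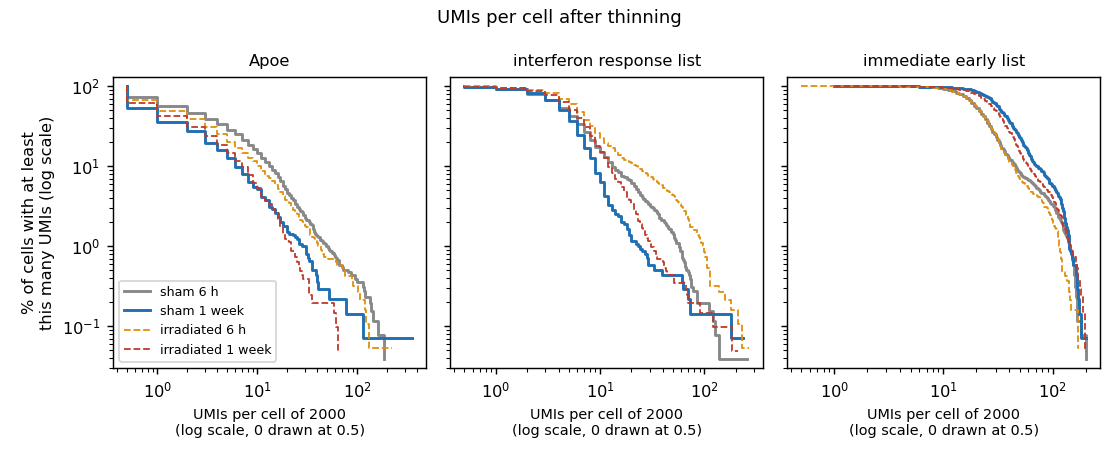
Share of cells (%, log scale) with at least a given number of UMIs per cell of 2000 (log scale) for Apoe and for the interferon response and immediate early lists, with the sham libraries as thick lines and the irradiated ones dashed. Sham at 1 week lies below sham at 6 h over most of the range for Apoe and for interferon genes, and above it for immediate early genes over most of the range, where the median was 21 UMIs at 6 h and 33 at 1 week.

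Ccl5, which encodes a chemokine for T cells and monocytes, had the lowest log2 fold of all measured genes. It had 564 UMIs at 6 h and 3 at 1 week (-6.78, 95% interval -9.06 to -5.22). These UMIs came from 55 cells at 6 h, of which the richest 10 held 405, and from 3 cells at 1 week. A few cells therefore carried most of the level, and without the cells of other types the log2 fold was -6.60. Pf4, a chemokine gene of border macrophages, had 130 and 7 UMIs, of which 119 at 6 h lay in 10 cells, and its log2 fold of -3.44 became -1.93 without the cells of other types. Vtn, a marker of mural cells, had 138 UMIs at 6 h and 0 at 1 week, and 137 of them came from 1 cell. The levels of the classes above moved with these genes, and their part in the other results was measured only by leaving those cells out.

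Of 27 measured antigen presentation genes 5 were at least 1.5-fold lower at 1 week (18.5%, against 3.63% of all genes) and 0 higher. They were the class I genes H2-D1, H2-Q6 and H2-Q7 and the processing genes Canx and Erap1, and the median of all 27 was -0.15. The classical class I heavy chain gene H2-D1 (chromosome 17, 35262730 to 35267499) stood at 891 CPM at 6 h and 491 CPM at 1 week (-0.86, 95% interval -0.92 to -0.80), but H2-K1 at -0.23 and the light chain gene B2m, at 4699 and 3536 CPM (-0.41), did not reach 1.5-fold. The nonclassical genes H2-Q6 and H2-Q7, which are close copies of each other so that reads could be split between them, were at -2.48 and -1.24. Canx, a chaperone of heavy chain folding, was at -0.66 and the trimming peptidase Erap1 at -0.61. The immunoproteasome genes Psmb8 and Psmb9 lay at 0.02 and 0.03 and the peptide transporter gene Tap1 at -0.31. Class II genes were sparse, with 7 and 4 UMIs of H2-Aa, 6 and 7 of H2-Eb1 and 0 and 0 of their activator Ciita, while H2-Ab1 was at 0.47 and Cd74, the class II chaperone, at -0.34. The median thinned cell held 36 UMIs of the list at 6 h and 32 at 1 week. The share above 63 UMIs, the 95th percentile at 6 h, was 0.215% (95% interval 0.0444 to 0.628%) at 1 week. At 6 h it was 4.96%, which the choice of that cut sets.

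Immediate early genes were the group with the most members higher at 1 week. Of 30 measured members 14 were at least 1.5-fold higher, against 1.98% of all genes, and 0 were lower, with a median of 0.57 and 29 of 30 above 0. The list summed to 14291 CPM at 6 h and 20707 CPM at 1 week. The AP-1 gene Fos stood at 942 and 1482 CPM (0.65, 95% interval 0.61 to 0.70) and its relative Fosb at 45.7 and 90.4 CPM (0.98, 95% interval 0.80 to 1.17). Their partner genes Jun and Junb were closer, at 0.40 and 0.54, and did not reach 1.5-fold. The zinc finger factor genes Egr1 and Egr2 were at 0.66 and 0.96, and the Kruppel-like factor genes Klf2 and Klf4 at 0.81 (552 and 971 CPM) and 1.17 (47.7 and 107 CPM). Atf3, a stress-induced repressor, was at 1.14 (95% interval 1.02 to 1.27) and the growth arrest gene Gadd45b at 1.36 (95% interval 0.93 to 1.80). The feedback genes Zfp36, which destabilises cytokine messages, and Btg2, an antiproliferative gene, were at 0.73 and 0.78.

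Per cell, the immediate early list was higher at the median and at both deciles. The thinned cell held a median of 21 UMIs of the list at 6 h and 33 at 1 week, the 10th percentile was 12 and 18 UMIs and the 90th 45 and 72, while the 99th was near equal at 141 and 142. Without the 5% of cells richest in the list in each library the list median was 0.78. Fos was carried by 44.9% (95% interval 43.0 to 46.9%) of thinned cells at 6 h and 62.4% (95% interval 59.8 to 64.9%) at 1 week (55.2% and 69.8% at full depth), and Klf2 by 36.7% and 55.7% (44.8% and 63.6% at full depth). Fos also had a UMI in 4 of the 11 cells with few microglia markers and Klf2 in 5. Heat shock genes, which respond to protein damage, differed little: Hspa1a stood at 278 and 284 CPM (0.03, 95% interval -0.06 to 0.12), and of 23 measured members of the chaperone list 1 was higher (Hspb1, 1.24) and 1 lower (Hsph1, -0.68), with a median of -0.13. The part of cell preparation in the immediate early difference was not tested.

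Cytokine and NF-kB genes showed 8 of 31 measured members at least 1.5-fold higher at 1 week (25.8%, against 1.98% of all genes) and 0 lower, with a median of 0.13. The higher members were Tnf, Ccl3, Ccl4, Ier3, Ccrl2, Tnfaip2, Socs3 and Nfkbiz. Tnf, the prototype inflammatory cytokine gene, stood at 13.2 CPM at 6 h and 39.5 CPM at 1 week (1.57, 95% interval 1.26 to 1.90). The chemokine genes Ccl3 and Ccl4, neighbours on chromosome 11 whose products attract immune cells, stood at 308 and 723 CPM and at 363 and 869 CPM, log2 folds of 1.23 (95% interval 1.16 to 1.30) and 1.26 (95% interval 1.20 to 1.32). Ccl4 was carried by more cells at 1 week: 15.2% (95% interval 13.8 to 16.6%) of thinned cells at 6 h and 27.7% (95% interval 25.4 to 30.1%) at 1 week (20.3% and 33.5% at full depth), with 2 of the 11 few-marker cells carrying it. The survival gene Ier3 was at 1.42 (95% interval 1.28 to 1.56), the chemokine-binding receptor gene Ccrl2 at 1.12, Tnfaip2, induced by Tnf, at 1.04 (50 and 60 UMIs), the cytokine signalling inhibitor Socs3 at 0.73 and the nuclear regulator Nfkbiz at 0.81. Of the NF-kB subunit genes 0 of 5 passed 1.5-fold, with Nfkb1 at -0.06, Nfkb2 at -0.23, Rela at 0.06, Rel at 0.27 and Relb just under it at 0.56. The monocyte chemokine genes Ccl2 and Ccl7 were at 0.01 and -0.24. Adamts1, an extracellular protease gene outside the lists, stood at 97.2 and 242 CPM (1.32, 95% interval 1.20 to 1.44).

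**Figure D3:**
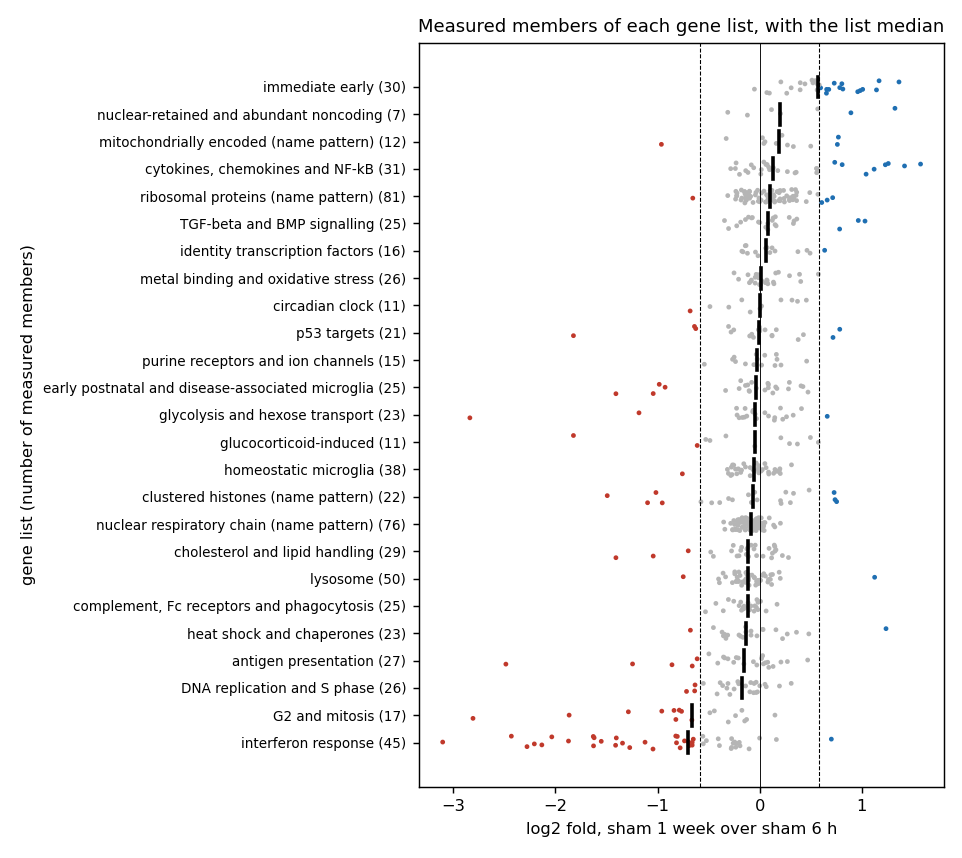
Log2 fold (sham 1 week over sham 6 h) of every measured member of the gene lists with at least 7 measured members, with the list median as a black bar and the number of members in brackets. Members at least 1.5-fold higher are blue and those at least 1.5-fold lower red; the medians run from -0.70 for interferon response to 0.57 for immediate early genes, and most lists centre near 0.

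The genes that define mature microglia stood at like levels in the sham libraries. Of 38 measured homeostatic members 1 was at least 1.5-fold lower (2.63%, near the 3.63% of all genes) and 0 higher, with a median of -0.06 against -0.05 for all genes. Tmem119 stood at 2596 CPM at 6 h and 2644 CPM at 1 week (0.03). The fractalkine receptor gene Cx3cr1 was at 0.09, and the lectin gene Siglech was the highest member at 0.31. P2ry12, the receptor that guides processes to released ATP, stood at 6569 and 5575 CPM (-0.24, 95% interval -0.26 to -0.22), and Csf1r, the receptor on which microglial survival depends, was at -0.27. The interval of P2ry12 lies below 0 and inside 1.5-fold.

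The exception was Crybb1 (chromosome 5, 112255815 to 112269585), a crystallin gene that microglia express, at 1279 CPM at 6 h and 757 CPM at 1 week, a log2 fold of -0.76 (95% interval -0.81 to -0.71). It was carried by 82.3% (95% interval 80.7 to 83.7%) of thinned cells at 6 h and 68.5% (95% interval 66.0 to 70.9%) at 1 week (90.8% and 78.8% at full depth), and by 3 of the 11 few-marker cells. Of the 16 transcription factor genes of microglial identity 1 was higher, Cebpa, a myeloid lineage factor, at 337 and 524 CPM (0.64, 95% interval 0.56 to 0.71), and 0 were lower. Sall1 (0.07), Irf8 (0.15), Spi1 (0.10) and Mef2c (-0.02) were near 0. A related factor outside that list, Cebpb, which acts in inflammatory gene induction, stood at 247 and 96.4 CPM (-1.36, 95% interval -1.49 to -1.22), the opposite direction to Cebpa. It was named after its values were seen.

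Apoe, the lipid carrier gene, had the lowest log2 fold among genes above 1000 CPM at 6 h. It stood at 2984 CPM at 6 h and 1449 CPM at 1 week (chromosome 7, 19696109 to 19699188), a log2 fold of -1.04 (95% interval -1.08 to -1.01). It was carried by 73.5% (95% interval 71.7 to 75.2%) of thinned cells at 6 h and 53.1% (95% interval 50.5 to 55.8%) at 1 week (81.0% and 60.5% at full depth). Carrying cells held a mean of 7.58 and 5.15 UMIs of 2000, so both the share and the level per carrying cell were lower at 1 week. Apoe had a UMI in 6 of the 11 few-marker cells, and other cells of the brain secrete it, so its free-RNA level could not be set. Without the cells of other types its log2 fold was -1.08.

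Some other genes known from early postnatal and disease-associated microglia were lower as well. The fatty acid binding protein gene Fabp5 had 91 and 20 UMIs (-1.41, 95% interval -2.18 to -0.70), the osteopontin gene Spp1 78 and 23 (-0.98, 95% interval -1.72 to -0.30) and the growth factor gene Igf1 88 and 27 (-0.93, 95% interval -1.61 to -0.29). With Apoe they were the 4 of 25 measured members lower by 1.5-fold or more (16%, against 3.63% of all genes). None of the 25 was higher by that much (0 members), and the list median was -0.03. Fabp5, Spp1 and Igf1 reached the minimum of UMIs mainly through their counts at 6 h. Another 8 members did not reach it, so the count of 4 describes the measured members only. Among the other measured members Tyrobp, the adaptor of Trem2, was at -0.03, the tetraspanin gene Cd9 at 0.29, the lipase gene Lpl at 0.28 and the galectin gene Lgals3 at 0.47. The lectin receptor gene Clec7a could not be matched to the files by its symbol. Among 29 measured genes of lipid handling 3 were lower (10.3%, against 3.63% of all genes) and 0 were higher. The lower ones were Apoe, Fabp5 and Scap, the escort of sterol-regulated transcription factors (-0.70). The limit stated above for Fabp5 holds here too.

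Phagocytic and lysosomal genes hardly differed. Of 25 measured genes for complement, Fc receptors and phagocytosis 0 passed 1.5-fold in either direction, with a median of -0.11: C1qa stood at 10696 and 10575 CPM and Trem2 was at 0.17. Of 50 measured lysosomal genes the mannosidase gene Manba was lower (-0.75) and Atp6v0c, a proton pump subunit, higher (1.13, 95% interval 0.69 to 1.56). Cst3, the cystatin C gene that takes more UMIs than any other named gene, was at 0.20, with 54824 and 63051 CPM. Of 15 measured purine receptor and ion channel genes and of 26 metal and oxidative stress genes 0 passed 1.5-fold in either direction.

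Genes of G2 and mitosis were lower at 1 week. Of 17 measured members 9 were at least 1.5-fold lower (52.9%, against 3.63% of all genes) and 0 higher, with a median of -0.66. The other 34 of the 51 list members had fewer than 100 UMIs, and over all 51 the median was -1.19. Members had to reach the minimum through the library where they were higher, so the count describes the measured members only. Top2a, the topoisomerase that untangles replicated chromosomes, had 144 UMIs at 6 h and 12 at 1 week (-2.81, 95% interval -3.79 to -1.96), of which 118 at 6 h lay in 10 cells. The centromere gene Cenpf was at -1.87, the ubiquitin-conjugating gene Ube2c at -1.29 (-0.012 without barcodes above the 99th percentile of UMIs), the cyclin-dependent kinase gene Cdk1 at -0.84 and the microtubule regulator Stmn1, at 84.4 and 49.7 CPM, at -0.76. Mki67, the proliferation marker, had 53 and 11 UMIs.

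Part of these transcripts came from few cells. Cells with at least 2 UMIs over 12 mitotic genes made up 26 of 2652 at 6 h (0.980%, 95% interval 0.641 to 1.43%) and 4 of 1582 at 1 week (0.253%, 0.0689 to 0.646%). They held 82.4% and 56.4% of the UMIs of those 12 genes. Among thinned cells the shares were 0.703% and 0.144%. Over the whole list the median thinned cell held 2 UMIs in both libraries. Without the 26 and 4 cells the list median was -0.17 and Top2a was at 0.76. Top2a is among the 12 genes that picked those cells, so its value without them follows in part from that choice. That value also rests on few UMIs. Genes of DNA replication and S phase differed less, with 3 of 26 measured members lower (11.5%, against 3.63% of all genes), 0 higher and a median of -0.17. The lower members were Dnmt1, Gins1 and Mcm6, at -0.72, -0.64 and -0.63, and each came under 1.5-fold in some alternative of the processing. The clamp gene Pcna was at 0.31. The letters TTTGAA or TTCAAA, the cell cycle genes homology region (CHR) of promoters that are repressed outside G2 and mitosis, were found in 10 of 14 measured G2 and mitosis genes with a promoter in the RefSeq table (71.4%), against 13.7% of the measured genes with one. The promoter of Top2a is shown, the gene with the lowest fold among the measured members of the G2 and mitosis list. Both matches are in capitals, 179 and 23 bases before the start, at chr11:99024140-99024439 on the minus strand of GRCm38.p6.
Top2a: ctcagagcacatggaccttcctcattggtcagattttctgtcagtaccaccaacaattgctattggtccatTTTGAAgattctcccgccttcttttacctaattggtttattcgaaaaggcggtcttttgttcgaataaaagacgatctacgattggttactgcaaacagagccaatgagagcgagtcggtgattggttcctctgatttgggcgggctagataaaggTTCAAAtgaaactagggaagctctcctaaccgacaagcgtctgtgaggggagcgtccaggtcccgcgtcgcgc
The first match reads TTTGAA on the strand of the gene and the second TTCAAA.

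Pfn1, which encodes the actin monomer binding protein profilin, had the lowest log2 fold among genes above 100 CPM at 6 h. It stood at 396 CPM at 6 h and 81.6 CPM at 1 week (chromosome 11, 70651850 to 70654644), a log2 fold of -2.28 (95% interval -2.42 to -2.14). It was spread over cells, with 52.6% (95% interval 50.6 to 54.5%) of thinned cells carrying it at 6 h and 15.7% (95% interval 13.8 to 17.7%) at 1 week (72.0% and 25.2% at full depth, and 8 of the 11 few-marker cells). The glucose transporter gene Slc2a3 had 478 UMIs in 420 cells and 39 UMIs in 35 cells (-2.84, 95% interval -3.35 to -2.36). Bcl2l12, of the apoptosis regulator family, had 221 and 17 UMIs (-2.92, 95% interval -3.73 to -2.21). Their UMIs were spread over cells, with at most 4 in a cell at 6 h for Slc2a3 and at most 3 for Bcl2l12.

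Several further genes were picked after their values were seen. Trp53, which encodes p53, stood at 115 and 40.0 CPM (-1.52, 95% interval -1.73 to -1.31) and was carried by 20.9% and 7.47% of thinned cells (33.1% and 13.1% at full depth, and 0 of the 11 few-marker cells). Ncstn, a subunit of gamma-secretase, was at -1.51 and the transcription factor gene Usf1 at -1.80. The glycolytic gene Pgk1 was at -1.18 (95% interval -1.64 to -0.75) and made, with Slc2a3, the lower members of the glycolysis list, where 1 of 23, the lactate transporter gene Slc16a1, was higher (0.66, 95% interval 0.13 to 1.19) and the median was -0.04. Slc2a5, the fructose transporter gene of microglia, lay at 0.09 and Gapdh at 0.41. Gm10076 and Gm2000, predicted genes, were at -1.40 and -1.27, with 448 and 170.0 CPM for the former. Some predicted genes are copies of ribosomal protein genes, to which reads can be assigned in place of the parent, so their values are uncertain. The ribosomal protein gene Rpl41 was at -0.15.

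**Figure D4:**
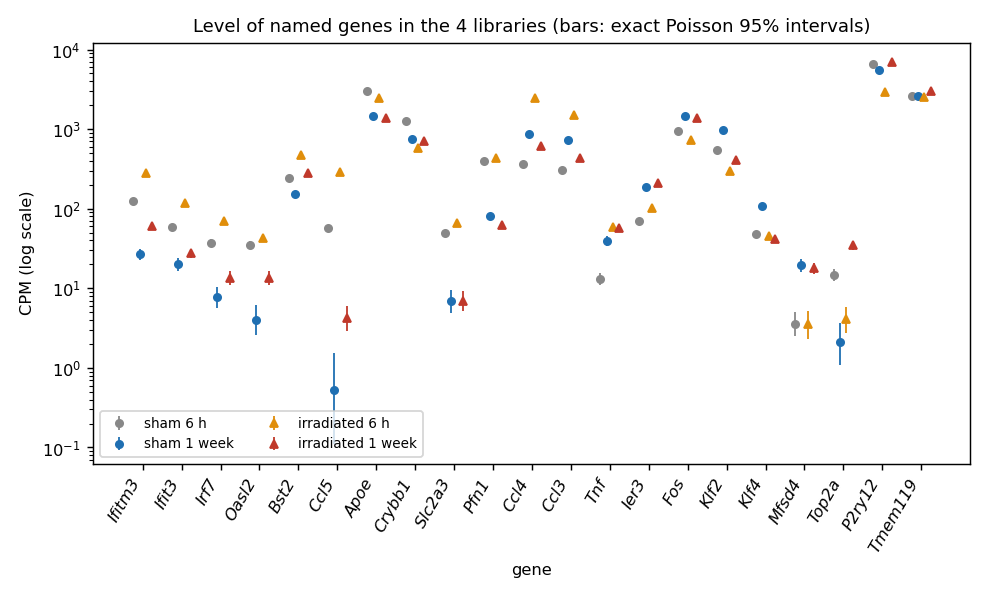
Level (CPM, log scale) of named genes in the 4 libraries, with exact Poisson 95% intervals for counting error as bars. Circles are the sham libraries and triangles the irradiated ones; Pfn1, Slc2a3 and Mfsd4 stand at like levels in libraries of the same time, while Ccl3, Ccl4 and Top2a do not.

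In TGF-beta and BMP signalling, which sustains the microglial state, 3 of 25 measured members were higher (12%, against 1.98% of all genes) and 0 lower, with a median of 0.08. They were the inhibitory Smad gene Smad7, at 219 and 376 CPM (0.78, 95% interval 0.70 to 0.87), and the transcriptional repressor genes Hes1 (0.97, 95% interval 0.71 to 1.22) and Id2 (1.03, 95% interval 0.90 to 1.16), while the receptor gene Tgfbr1 was at -0.01 and the ligand gene Tgfb1 at 0.29. Of 21 measured p53 targets 3 were lower (14.3%, against 3.63% of all genes), Ddit4, an inhibitor of mTOR complex 1, at 134 and 37.9 CPM (-1.82, 95% interval -2.04 to -1.61), Ccng1 (-0.64) and Cd80 (-0.63), and 2 were higher (9.52%, against 1.98%), Btg2 and Ercc5 (0.72). Cdkn1a, the cell cycle inhibitor that irradiation induces through p53, stood at 52.2 and 56.7 CPM (0.12, 95% interval -0.09 to 0.33), against 2944 and 2206 CPM in the irradiated libraries. Among 11 measured glucocorticoid-induced genes Ddit4 and Fkbp5 (-0.61), a cochaperone of the receptor, were lower (18.2%, against 3.63% of all genes) and 0 were higher, with Sgk1 at 0.21 and Mt1 at 0.29. Among 11 measured clock genes Arntl (BMAL1) was lower, at -0.68 (95% interval -1.31 to -0.08), and Clock lay at -0.17 and Per3 at 0.46.

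Ribosomal protein and nuclear respiratory chain genes had few members past 1.5-fold, whereas clustered histone genes had a larger share in both directions. The histone shares were 13.6% higher and 18.2% lower, against 1.98% and 3.63% of all genes. For ribosomal protein genes they were 3.70% and 1.23%. Of the mitochondrially encoded genes 16.7% were higher, and the lower share of 8.33% is 1 gene, mt-Atp8, so it gives no direction for the list. Of 81 measured ribosomal protein genes 3 were higher (Rps12, Rps21 and Rplp1, at 0.71, 0.66 and 0.61) and 1 lower (Rpl35, -0.65), with a median of 0.10. Of 76 measured nuclear genes of the respiratory chain 0 passed 1.5-fold in either direction, with a median of -0.09. Of 12 measured mitochondrially encoded genes mt-Nd2 and mt-Nd3, subunits of complex I, were higher (0.77 and 0.76) and mt-Atp8, which overlaps mt-Atp6 on the same strand so that reads could be split, was lower (-0.96), and mt-Co1 was at 0.03. Of 22 measured clustered histone genes Hist1h2ae, Hist1h2ap, Hist1h2bg and Hist1h2bj were lower, between -1.49 and -0.95, and Hist1h1c, Hist1h2be and Hist2h4 were higher, between 0.73 and 0.75. The paraspeckle transcript Neat1 had 494 and 721 UMIs (1.32, 95% interval 1.16 to 1.49), and Malat1, retained in nuclear speckles, was at 0.12. Tsix, antisense to Xist, was at -0.76 (95% interval -1.03 to -0.50), and since the use of strand in counting is not given in the sources used here its reads cannot be told apart from those of Xist (0.17).

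The irradiated libraries of the same times share no library with the sham pair, so their difference between 1 week and 6 h can be set beside it. Of 8524 genes measured in the irradiated pair 7.94% were at least 1.5-fold higher at 1 week and 9.67% lower. Among 8288 genes measured in both pairs 111 were lower in both (1.34%), which is 39.4% of the 282 lower in the sham pair and 16.0% of the 692 lower in the irradiated pair. Another 46 were higher in both (0.555%), 29.9% of the 154 and 7.03% of the 654. In the opposite direction lay 15 of the lower and 17 of the higher genes of the sham pair. Across genes, which share the same libraries and are not independent, Pearson's r was 0.270 and Spearman's rho 0.180. Whether the libraries of a time were prepared together could not be taken from the sources used here.

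Of the 27 interferon genes lower in the sham pair 26 were lower in the irradiated pair too, with list medians of -0.70 and -1.05. Irf7 was at -2.28 and -2.38 and Ifitm3 at -2.21 and -2.22, in the sham and the irradiated pair in that order. The levels differed: Ifitm3 stood at 281 CPM in irradiated cells at 6 h and 60.1 CPM at 1 week, each above the sham library of its time. Outside that list, Pfn1 was at -2.28 and -2.80, Slc2a3 at -2.84 and -3.23, Trp53 at -1.52 and -1.64, Bcl2l12 at -2.92 and -2.67 and Apoe at -1.04 and -0.81. Pfn1 stood at 396 and 431 CPM in the libraries of 6 h and at 81.6 and 61.7 CPM in those of 1 week. These genes were lower at 1 week in both pairs.

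Of the genes higher in both pairs, Mfsd4, a predicted transporter gene of the major facilitator family, had 35 and 111 UMIs in sham cells (2.44, 95% interval 1.88 to 3.04) and 26 and 137 in irradiated cells (2.33). It was the gene with the highest fold of the sham pair and came from 35 and 107 sham cells, with at most 2 UMIs in a cell. Ier3 (1.04 in the irradiated pair), Fosb (1.57), Hes1 (1.11) and the linker histone gene Hist1h1c (1.83) were also higher in both. Of the 14 immediate early members higher in the sham pair 5 were higher in both. Among all genes it was 46 of 154 (29.9%), so the count is not particular to that list. Its members Atf3 and Gadd45b were lower in the irradiated pair, at -1.62 and -1.33. Crybb1 was at -0.76 in the sham pair and 0.30 in the irradiated pair, and the difference between the pairs has no replicate check.

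**Figure D5:**
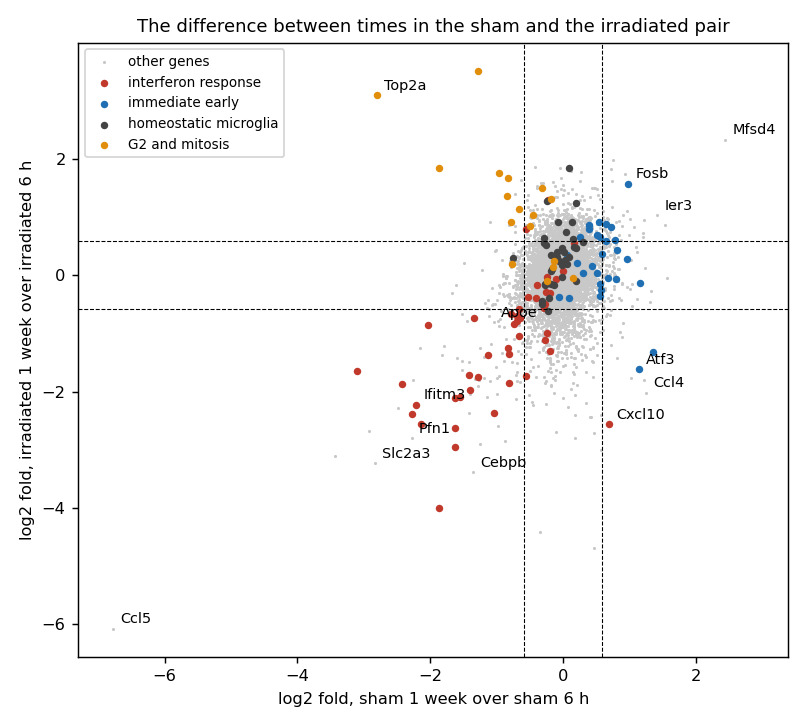
Log2 fold between 1 week and 6 h in the irradiated pair against that in the sham pair, for each gene with at least 100 UMIs in both pairs, with 4 gene lists coloured and dashed lines at 1.5-fold. Interferon genes lie mostly lower left, Ccl5 lies farthest in that direction, and Top2a and other G2 and mitosis genes are lower in the sham pair and higher in the irradiated pair.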

How the data were processed

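The deposited files hold raw UMI counts per gene and barcode, unnormalized, 1 matrix per library. Per the submitters' processing notes, Cell Ranger 2.0 and mm10 were used. How barcodes were called as cells, the annotation release and the use of strand: not given in the sources used here. Barcodes with at least 1000 UMIs, 500 genes and at most 10% mitochondrially encoded UMIs were kept, counts were summed per library and scaled to CPM, and genes with at least 100 UMIs over both sham libraries were compared. Each group is 1 library, so no test was run and no p-value is given. Intervals are exact (Poisson for CPM, conditional binomial for folds, Clopper-Pearson for shares, 95%) and cover counting error only. In folds a count of 0 was put at 3 UMIs. A gene was called at 1.5-fold. For shares of cells, cells were thinned to 2000 UMIs and shallower ones left out. No doublet caller was run; leaving out barcodes above the 99th percentile of UMIs was an alternative.

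Named genes were the 15 in each direction past 1.5-fold whose nearer interval bound was farthest from 0, of each of 26 gene lists the 3 members with most UMIs and up to 4 past 1.5-fold in each direction, and a fixed set such as Apoe, Top2a and P2ry12. This rule gave 151 genes, and 32 others were named after their values were seen. The members, lists and tests were chosen with earlier results of these data known. Of 716 list entries 9 symbols had no match. Gene positions and types are from GENCODE vM21, with 27645 of 27998 gene IDs matched, and promoters from RefSeq on GRCm38.p6. Python 3.11.15, numpy 2.4.6, scipy 1.17.1 and pandas 2.3.3 were used, with R 4.3.3, edgeR 4.0.16 (TMM) and DESeq2 1.42.0 (size factors) for other scalings only. The calculation was tested on simulated counts. Some genes are not reported here.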

Additional observations from a re-analysis of the deposited data

Results flagged for a closer look

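Several results had opposite directions between 1 week and 6 h in the sham pair and in the irradiated pair. Each group is 1 library, so none of these differences between the pairs was tested. In the order sham pair, irradiated pair, the median log2 fold of G2 and mitosis genes was -0.66 and 1.13. Among its members Top2a was at -2.81 and 3.09, Cenpf at -1.87 and 1.84 and Ube2c at -1.29 and 3.52, and the replication licensing gene Mcm6 was at -0.63 and 1.63. Cells with at least 2 UMIs over 12 mitotic genes made up 0.403% of irradiated cells at 6 h and 1.81% at 1 week, against 0.980% and 0.253% of sham cells. The replication-dependent histone gene Hist1h2ap was at -1.10 and 0.91.

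In the other direction, the chemokine genes Ccl3 and Ccl4 were at 1.23 and -1.81 and at 1.26 and -2.02, and Cxcl10 was at 0.70 and -2.56. The stress-induced genes Atf3 and Gadd45b were at 1.14 and -1.62 and at 1.36 and -1.33. Id2, a repressor of differentiation factors, was at 1.03 and -1.76, and the lactate transporter gene Slc16a1 at 0.66 and -0.66. Ccl4 stood at 2477 CPM in irradiated cells at 6 h and 610.3 CPM at 1 week, against 363 and 869 CPM in sham cells.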

How the results depend on the processing

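Of the log2 folds of single genes 1 reversed: Top2a was at 0.76 without the dividing cells. Those cells were picked by genes that include Top2a, and few of its UMIs were left, so this value gives no direction. The counts that follow take each value once per alternative, so a gene or list is counted more than once. Over the 178 single genes checked, 115 other folds moved beyond counting error and 1639 did not. Over the 26 lists, 13 medians moved beyond the spread of the list and 351 did not. Most shares of cells moved with the depth they were taken at, 139 against 37 that did not, counted per gene, library and depth. The counts of genes depend on the minimum and on the size asked for. Higher and lower genes numbered 281 and 476 with at least 50 UMIs per gene, 107 and 169 with at least 200, 2578 and 1740 with at least 1, 32 and 76 at 2-fold, and 53 and 74 when the nearer interval bound had to pass 1.5-fold. With DESeq2 and TMM scaling, which put the median of all genes near 0, the homeostatic median was -0.0081 and -0.0085, that of ribosomal protein genes 0.15 and 0.15, and that of nuclear respiratory chain genes -0.037 and -0.037. Without the 5% of barcodes richest in a list the interferon median was -0.51, the immediate early median 0.78 and the G2 and mitosis median -0.17. The last was -1.03 with at least 50 UMIs per gene, -1.19 with at least 1 and -0.17 without dividing cells. The median of the sex-linked list, with 2 measured members, turned from -0.30 to 0.17 with at least 1 UMI. Of 99 named genes past 1.5-fold 12 came under it in some alternative: Mcm6, Gatm, Gins1, Ube2c, Slc16a1, Hsph1, Lyve1, Arntl, Dnmt1, Ccng1, Cd80 and Fkbp5. Apart from what the construction of an alternative shows (fewer genes or cells), the cause was not tested. No paired analysis was possible because each group of the sham comparison is 1 library. Counting error limits genes of low level: a count of 0 allows up to 3 UMIs, or 0.308 CPM at 6 h and 0.529 CPM at 1 week.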

Other observations

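By annotated type, 1.69% of 8351 measured protein-coding genes were at least 1.5-fold higher and 3.47% lower. Of 58 measured antisense genes 12 were higher at 1 week (20.7%) and 6 lower (10.3%), and of 85 long intergenic noncoding genes 13 were higher (15.3%) and 7 lower (8.24%). These types were not compared at matched level, and reads of an antisense gene and its partner cannot be told apart where strand is not known to be used. Mir142hg, the host transcript of a microRNA of blood cell lineages, stood at 14.4 and 41.8 CPM (1.54, 95% interval 1.23 to 1.85), with 0.86 in the irradiated pair. The uncharacterised 1700061E18Rik was at 1.68 and 1.18 and Gm10382 at 1.22 and 0.95.

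Protein-coding genes outside the lists also lay in the same direction in both pairs, and were named after their values were seen. Cebpb was at -1.36 and -3.39, Ncstn at -1.51 and -1.48 and Usf1 at -1.80 and -1.21. Rgs2, an inhibitor of G protein signalling, was at 0.64 and 0.77, and the interleukin 17 receptor gene Il17ra at 0.75 and 0.86. Whether they follow age, preparation or the day of the libraries was not tested.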
